A study of Mus musculus with 8 samples.

Results

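The genes described here are the carriers that move organic anions and cations, drugs, bile salts and lipids across membranes. They were taken from the deposited gene table by symbol, as every gene whose name begins with Slc22a, Slco and a digit, Slc47a, or Abc with a letter from a to g and a digit. The rule found 93 of the 23219 genes, of which 26 were Slc22a genes, 15 Slco genes, 2 Slc47a genes and 50 Abc genes. Of these, 68 were measured well enough to be tested, 11 of the remaining 25 had traces of coverage, and 14 had none in any library.

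In the kidney, cells of the proximal tubule take up organic ions from the blood through Slc22 carriers of the basolateral membrane and pass them into the urine through Slc47 exchangers and ABC pumps of the brush border. Slc22 carriers of the brush border recover urate and carnitine from the filtrate. Slco genes encode organic anion transporting polypeptides, which carry bile salts, hormones and drugs. ABC proteins use ATP. The A and G classes move mainly lipids and sterols, the B and C classes hold the multidrug pumps and several carriers of mitochondria and lysosomes, and the D class mainly serves peroxisomes. The E and F classes have no membrane part and act on ribosomes.

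RNA came from the whole kidney at an age of 2 months. Controls were 4 kidneys of the genotype Mta2flx/flx (libraries 3401, 3486, 3586 and 3587). Mutants were 4 kidneys of the genotype Six2Cre Mta2flx/flx (libraries 3382, 3387, 3487 and 3489), so the floxed alleles were common to both groups and only the mutants carried Cre. Mta2 encodes a subunit of the chromatin complex NuRD, and Six2 is active in the progenitors of the nephron epithelium, so vessels, stroma and other cells outside that lineage are not targeted. The series title speaks of glomerular scarring (FSGS) after loss of Mta2 in nephron progenitors. The comparison here is of whole kidney RNA between the genotypes, and scarring is not measured by it. Whether each kidney came from its own animal is not stated in the labels, so p-values cover the spread between samples only. Values by library are given below in the order of the numbers above.

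Levels are in BPM, the sequenced bases assigned to a gene per megabase assigned to all genes. This unit was read from the steps of the deposited values and is stated in no source. The libraries held 164 to 468 megabases. Small RNA genes, such as those of small nucleolar RNAs, took 15.9% to 34.3% of the bases in the controls and 25.9% to 52.6% in the mutants, with 48.0% in mutant 3387 and 52.6% in mutant 3487 (exact 2-sided permutation p = 0.229 for the means of 25.9% ± 7.90 and 38.2% ± 14.1; SD, n = 4 each). These bases lower the BPM of every other gene. Mta2 itself was at 35.1 to 67.9 BPM in the controls and 14.3 to 52.6 BPM in the mutants (log2 fold change -0.56, 95% interval -1.40 to 0.28, limma adjusted p = 0.857), and the groups overlapped. All 24 proximal tubule markers were covered and tested, while the 6 adrenal cortex markers summed to 0.860 to 4.41 BPM in the controls and 0.0204 to 2.03 BPM in the mutants, with Cyp11b1 and Cyp11b2 without coverage.

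No transporter gene passed the threshold of 0.05 on the limma adjusted p, against 0.107% of all 13060 tested genes (0.0766% higher and 0.0306% lower). Before adjustment, 3 of 68 had a p under 0.05 (Slc22a4 and Slc22a22 on the lower side and Abcc3 on the higher side), and 6.33% of all tested genes did (1.91% higher and 4.42% lower). The same 3 genes were those whose 4 mutant and 4 control libraries did not overlap, and 4.29% of all tested genes did not overlap either (0.888% higher and 3.4% lower). Each share was near its background. With small RNA genes left out of the totals the groups did not overlap for Slc22a4 on the lower side and for Abcc3 and Slco4a1 on the higher side, against 4.56% of all tested genes (2.89% higher and 1.68% lower). With libraries scaled to their medians they did not overlap for 2 genes, Slc22a4 on the lower side and Slco4a1 on the higher side, against 5.58% (3.12% higher and 2.46% lower). The median log2 fold change over the 68 tested genes was -0.25, and it was -0.23 over all tested genes. A negative value was found for 54 of the 68 and for 71.6% of all tested genes. This sign depended on the scaling. The transporter median was -0.042 with median scaling (39 of 68 negative), -0.029 with quantile normalization (38 of 68) and 0.0094 with small RNA genes left out of the totals (34 of 70). A fit that held the small RNA share as covariate gave 0.23 (18 of 68 negative), and the value was 0.20 without mutants 3387 and 3487 (22 of 67). The medians of all genes under these 5 settings were -0.021, -0.023, 0.029, 0.25 and 0.23.

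**Figure D1:**
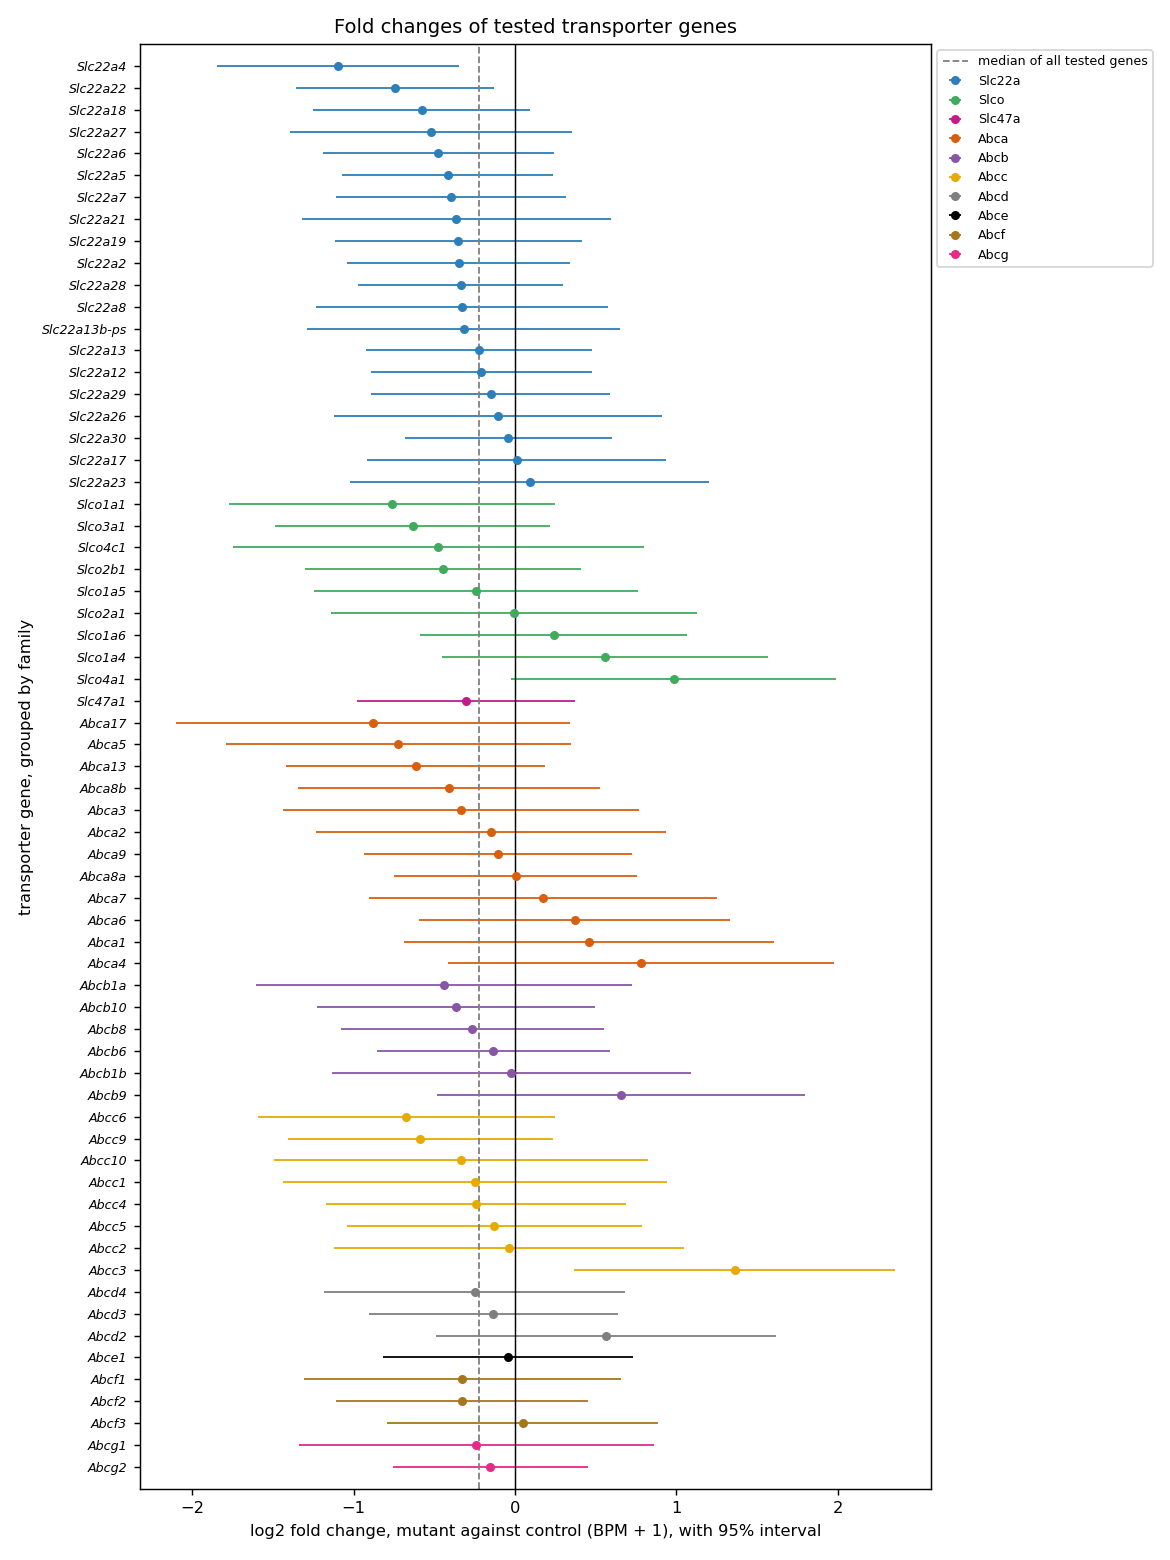
Each point is the log2 fold change of 1 tested transporter gene, mutant against control, on the scale log2(BPM + 1), with its 95% interval from limma over 4 and 4 libraries; genes are grouped by family and the dashed line is the median of all tested genes, -0.23. The intervals of Slc22a4, Slc22a22 and Abcc3 leave out 0, the others drawn cross it, and none of them has an adjusted p under 0.05.

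The 21 tested Slc22a genes had a median log2 fold change of -0.34, with 19 negative and 2 positive values. The 9 Slco genes had a median of -0.24, with 6 negative. Among the ABC classes the medians were -0.13 for 12 Abca genes, -0.19 for 7 Abcb genes, -0.25 for 8 Abcc genes, -0.19 for 4 Abcd genes, -0.33 for 3 Abcf genes and -0.20 for 2 Abcg genes. No family held a gene past the threshold. When small RNA genes were left out of the totals, the median over all genes became 0.03 and that of 22 Slc22a genes -0.07, with 14 negative. The Abca median was 0.14 under that scaling and 0.41 with the small RNA share as covariate, and the Slc22a median was 0.01 with the covariate, when the median of all genes was 0.25.

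The transporter genes together took 0.567% to 0.942% of all assigned bases in the controls and 0.515% to 0.895% in the mutants. Of the bases outside small RNA genes they took 0.864% to 1.12% in the controls and 0.784% to 1.21% in the mutants (means 1.00% ± 0.122 and 1.02% ± 0.181, SD, n = 4 each). The groups overlapped on both measures. Mutant 3382 was the lowest and mutant 3489 the highest of the 8 libraries on the second measure. Slc22a genes alone made up 0.607% ± 0.119 of it in the mutants and 0.608% ± 0.0576 in the controls.

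**Figure D2:**
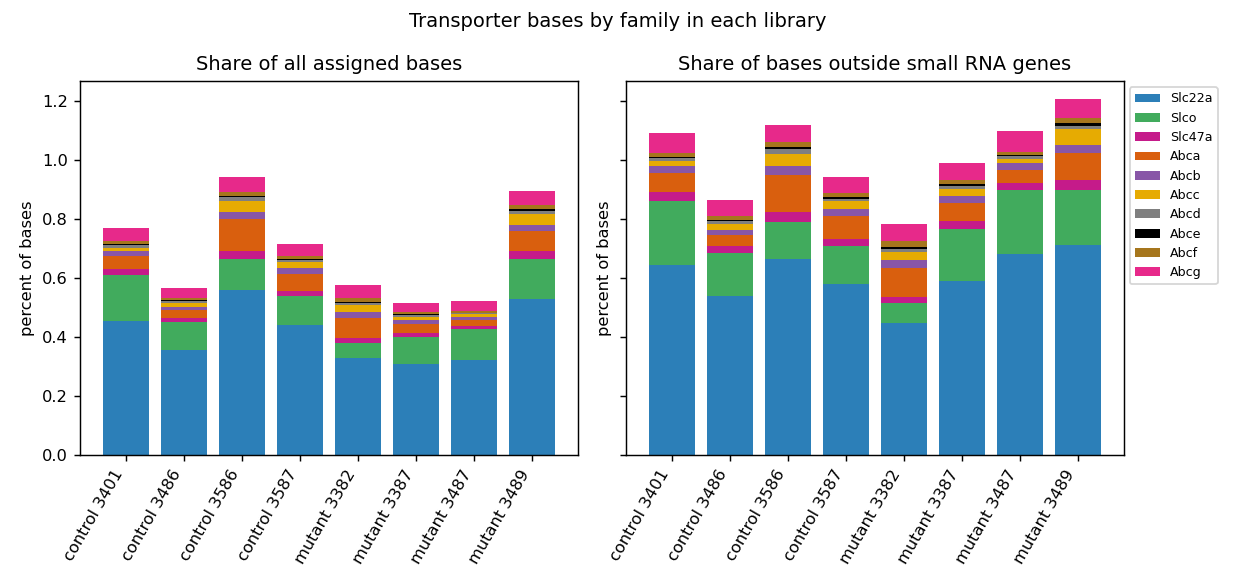
Stacked bars give, for each of the 8 libraries, the percent of bases that fell on transporter genes by family, of all assigned bases (left) and of bases outside small RNA genes (right). The Slc22a genes fill most of every bar, and mutants 3387 and 3487 are the lowest on the left (0.515% and 0.521%) and inside the control range on the right (0.991% and 1.10%).

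Levels of different genes were compared after division by the length of annotated exons, in BPM per kilobase. In the controls the order was led by Slc22a12 at 536 ± 127 BPM per kilobase (SD, n = 4). Further down, Slc22a28, Slc22a6, Slc22a18 and Slco1a6 were at 157 ± 18.6, 151 ± 54.5, 145 ± 46.3 and 125 ± 53, and these 4 did not differ beyond their spread. Slco1a1, Slc22a30, Slc22a7, Slc22a5, Slc22a2, Slc22a22, Slc47a1 and Abcg2 lay between 94.8 and 51.9. The multidrug genes Abcb1a and Abcb1b were near the other end, at 0.43 ± 0.359 and 0.458 ± 0.418 BPM per kilobase. Among the genes at or above 100 BPM the controls differed most for Abca3, with a coefficient of variation of 74.7%.

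**Figure D3:**
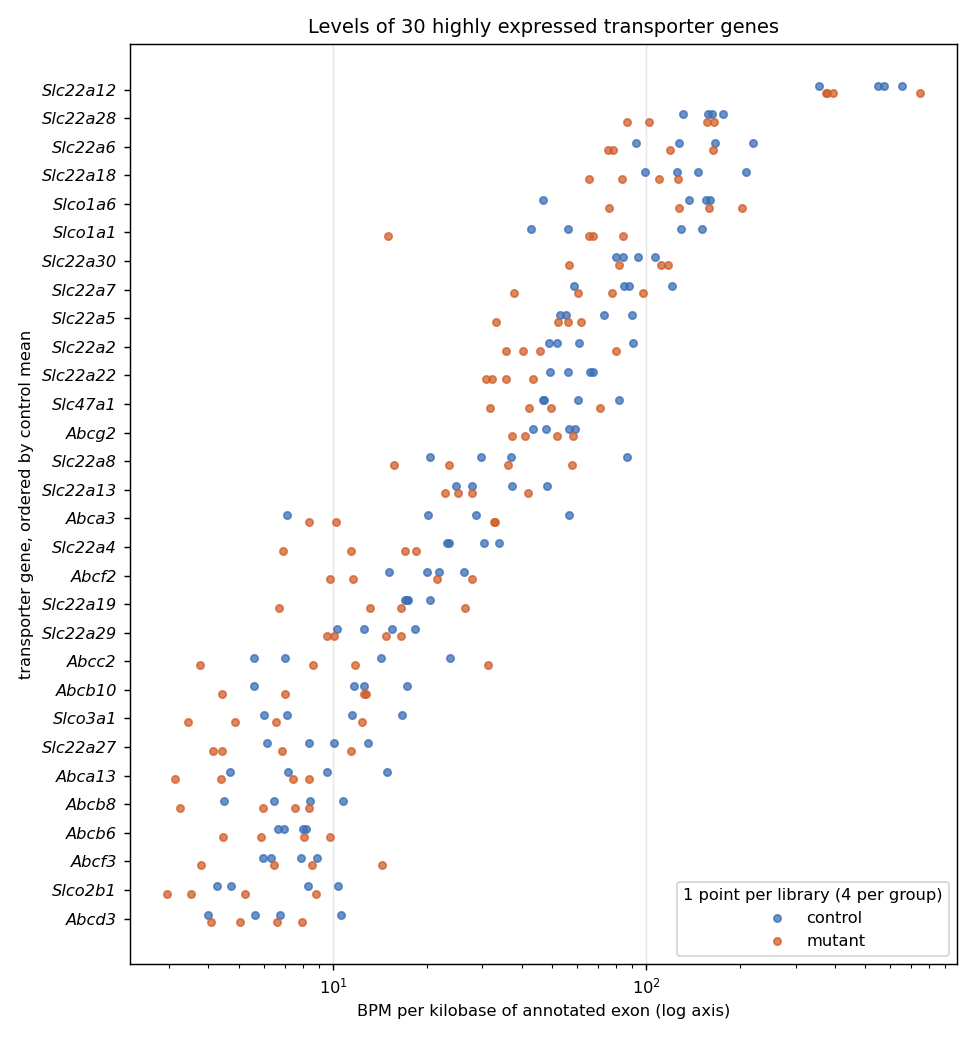
Each point is the level of 1 transporter gene in 1 library, in BPM per kilobase of annotated exon on a log axis, for 30 of the genes highest in the controls (4 control and 4 mutant libraries). The order runs from Slc22a12, at 358 to 659 in the controls, down to Abcd3, and the points of the groups interleave for most genes.

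Neighbours in the genome differed widely in level. The exchanger gene Slc47a1, which encodes the brush border carrier MATE1, was at 59.2 ± 16.5 BPM per kilobase in the controls, while its neighbour Slc47a2 had no coverage in any control. On chromosome 17 the cation carrier gene Slc22a2 was at 63.2, and its neighbour Slc22a3 had coverage in 3 of 8 libraries. In the Slco1 cluster of chromosome 6, Slco1a6 and Slco1a1 were at 125 and 94.8, Slco1a5 and Slco1a4 at 0.746 and 0.37, and Slco1c1 had no coverage. The Slco1a genes are close paralogs, and coverage that matches more than 1 of them makes each value uncertain.

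Slc22a6 (chromosome 19, 8618039 to 8628299, mm10) encodes OAT1, which takes up organic anions from the blood in exchange for dicarboxylates. It was at 659, 369, 876 and 509 BPM in the controls and 473, 300.2, 312 and 652 BPM in the mutants. The groups overlapped, with mutant 3489 just under control 3401 and control 3486 among the mutants. The fitted log2 fold change was -0.48 (95% interval -1.19 to 0.24, limma adjusted p = 0.857). Slc22a8 (chromosome 19, 8591254 to 8611835) is its neighbour and encodes OAT3, of like function. It was at 116, 79.7, 340.3 and 145 BPM in the controls and 142, 91.8, 61.3 and 227 BPM in the mutants, with control 3586 the highest library and mutant 3487 the lowest. Its log2 fold change was -0.33 (95% interval -1.24 to 0.57, limma adjusted p = 0.908).

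Hnf4a, which encodes a transcription factor of the proximal tubule, had a log2 fold change of -0.45 (limma adjusted p = 0.859). Of 21 regulators and scaffolds of drug transporters, 20 were tested and none passed the threshold. The largest value among them was that of Prlr, the prolactin receptor, at 2.75 (adjusted p = 0.0694). Prlr, which is also on the list of female-biased kidney genes, passed with array weights, median scaling, quantile normalization, small RNA genes left out of the totals and the covariate (limma adjusted p from 2.95e-06 to 0.00688). It also passed without mutant 3487, without mutants 3387 and 3487 together and without control 3586 (0.00468, 0.00239 and 0.0118). It did not pass with no filter (0.186), a filter of 5 BPM (0.118) or a pseudocount of 0.1 (0.101). Nor did it pass when any other single library was left out (limma adjusted p from 0.0824 to 0.245). The brush border scaffold gene Pdzk1 and Pdzk1ip1, which encodes a partner of it, were at -0.65 and -0.75 (0.806 and 0.636).

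Slc22a12 (chromosome 19, 6535845 to 6543032) encodes the brush border urate carrier URAT1. It was at 1299.8, 809.8, 1491 and 1249.6 BPM in the controls and 895, 854, 849.6 and 1694 BPM in the mutants. Mutant 3489 was the highest of the 8 libraries, and the other 3 mutants lay between control 3486 and the remaining controls. The log2 fold change was -0.21 (95% interval -0.89 to 0.47, limma adjusted p = 0.923). Slc22a7, which encodes the anion carrier OAT2, was at 185, 178, 254 and 123 BPM in the controls and 79.5, 127, 205 and 164 BPM in the mutants, and the groups overlapped (-0.40, adjusted p = 0.87). Slc22a13, which encodes an anion exchanger for urate and nicotinate, was at 69.1 ± 21.1 and 58.7 ± 17.3 BPM (SD, n = 4 each).

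A rodent cluster of anion carriers on chromosome 19 holds Slc22a19 and Slc22a26 to Slc22a30. Slc22a28 was at 316, 324, 263 and 352 BPM in the controls and 174, 205, 313 and 331 BPM in the mutants. Slc22a30 was at 316, 361, 285 and 271 BPM in the controls and 191, 275, 395 and 375 BPM in the mutants. For both genes mutants 3487 and 3489 lay within or above the control range and mutant 3382 was the lowest library. The log2 fold changes of the 6 cluster genes ran from -0.52 for Slc22a27 to -0.04 for Slc22a30, with limma adjusted p from 0.861 to 0.986. These genes are close paralogs, so how their coverage divides is uncertain. In all, 13 of 13 tested genes of the anion carrier group, which includes the annotated polymorphic pseudogene Slc22a13b-ps, had a negative log2 fold change, with a median of -0.33. The sign held for 10 of 13 with median scaling, 9 of 13 with quantile normalization, 8 of 13 with small RNA genes left out of the totals and 6 of 13 with the small RNA share as covariate. Of all tested genes 71.6% were negative before these changes, and 52.2%, 52.6%, 46.8% and 31.6% under the same settings in turn.

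Slc22a22 (chromosome 15, 57243767 to 57477625) encodes a carrier of prostaglandins in the mouse proximal tubule. It was at 161, 120.3, 138 and 165 BPM in the controls and 78.7, 86.9, 75.4 and 106 BPM in the mutants. Every mutant lay below every control, with mutant 3489 closest to control 3486. The means were 146 ± 20.9 and 86.8 ± 13.8 BPM (SD, n = 4 each), with a log2 fold change of -0.74 (SE 0.29, unadjusted p = 0.02, limma adjusted p = 0.65). The authors' deposited table gives a p of 0.00324 for this gene. With small RNA genes left out of the totals the control values were 228, 183, 164 and 217 BPM and the mutant values 107, 167, 159 and 143 BPM, and the groups overlapped.

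The cation carrier OCT2 of the basolateral membrane is encoded by Slc22a2. Slc22a2 was at 151, 121, 226 and 129 BPM in the controls and 114, 88.7, 100.3 and 198 BPM in the mutants (-0.35, limma adjusted p = 0.89). Slc47a1 (chromosome 11, 61343401 to 61378345), which carries cations onward into the urine in exchange for protons, was at 205, 159, 278 and 159.6 BPM in the controls and 168, 142, 107 and 242 BPM in the mutants (-0.30, 95% interval -0.98 to 0.37, adjusted p = 0.896). For Slc22a2 and Slc47a1 mutant 3489 lay among the controls, and mutants 3387 and 3487 lay below them.

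Slc22a4 (chromosome 11, 53983123 to 54028090) encodes OCTN1, a carrier of ergothioneine and other zwitterions. It was at 77.7, 59.9, 86.5 and 59.2 BPM in the controls and 43.4, 29.2, 17.6 and 47 BPM in the mutants. Every mutant lay below every control, and mutant 3487 was the lowest. The means were 70.8 ± 13.5 and 34.3 ± 13.5 BPM (SD, n = 4 each), with a log2 fold change of -1.10 (SE 0.36, 95% interval -1.85 to -0.35, unadjusted p = 0.00634, limma adjusted p = 0.477). It had the smallest p of the 68 genes and did not pass the threshold. The authors' deposited table gives a ratio of 0.485 and a p of 0.00876, again with no test or adjustment named. With small RNA genes left out of the totals the control values were 110.1, 91.1, 103 and 78 BPM and the mutant values 58.9, 56.3, 37.2 and 63.5 BPM, and the groups still did not overlap.

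Promoter windows from RefSeq (GRCm38.p6, 250 bases before to 50 after each start) are shown for the 2 genes whose mutants lay wholly below the controls, 5′ to 3′ on the strand of the gene. The Slc22a4 window is chr11:54028055-54028354 and the Slc22a22 window chr15:57477576-57477875, both on the minus strand. Capitals would mark the letters CAAAGTCCA, of the HNF4 motif, or TGACNNNGC, the core of the antioxidant response element, on either strand.
Slc22a4 promoter: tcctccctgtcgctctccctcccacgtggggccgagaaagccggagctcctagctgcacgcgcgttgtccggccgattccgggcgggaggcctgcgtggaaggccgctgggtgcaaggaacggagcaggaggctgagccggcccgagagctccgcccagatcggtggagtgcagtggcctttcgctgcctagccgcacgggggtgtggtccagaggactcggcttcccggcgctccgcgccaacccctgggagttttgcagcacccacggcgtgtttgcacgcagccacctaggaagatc
Slc22a22 promoter: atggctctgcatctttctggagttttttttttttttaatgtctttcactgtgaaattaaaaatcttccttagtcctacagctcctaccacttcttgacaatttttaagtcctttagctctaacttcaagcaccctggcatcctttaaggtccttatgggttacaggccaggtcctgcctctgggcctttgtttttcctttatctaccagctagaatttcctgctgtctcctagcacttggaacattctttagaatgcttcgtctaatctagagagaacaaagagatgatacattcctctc
Neither window held these letters. CAAAGTCCA was in 0.475% of all 32851 windows and in 1 of the 86 windows of 74 transporter genes, that of Abcd3. TGACNNNGC was in 12.4% of all windows and in 12 of the 86. The search did not count overlaps between the motifs, and a match is a string of letters and not a measured binding site.

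Slc22a5 and Slc22a21 lie beside Slc22a4 on chromosome 11 and encode carnitine carriers. Slc22a5, which recovers carnitine from the filtrate, was at 169.9, 163, 277 and 226 BPM in the controls and 173, 161, 102 and 191 BPM in the mutants. Mutant 3487 was the lowest library, and mutants 3382 and 3489 lay among the controls (log2 fold change -0.42, 95% interval -1.07 to 0.23, limma adjusted p = 0.857). Slc22a21 was at 5.43 ± 1.43 and 4.29 ± 2.56 BPM (SD, n = 4 each; log2 fold change -0.36, adjusted p = 0.906). The 3 neighbours thus had negative values of which that of Slc22a4 was the largest in size, and the difference between them was not tested.

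Of the remaining Slc22a genes, the imprinted Slc22a18 was at 249.5, 169, 353 and 214 BPM in the controls and 186, 142, 112 and 215 BPM in the mutants (-0.58, limma adjusted p = 0.828). Controls 3586 and 3401 were the highest libraries and mutant 3487 was the lowest. Slc22a23, whose substrate is not settled, was at 18, 12.2, 69.9 and 22.8 BPM in the controls and 45.9, 12.2, 14.6 and 55.4 BPM in the mutants. Its libraries fell at high and low levels in both groups, with 3586 high among the controls and 3382 and 3489 high among the mutants. The log2 fold change was 0.09 (adjusted p = 0.982) and 1.16 with the small RNA share as covariate (adjusted p = 0.0381).

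Abcc3 (chromosome 11, 94343295 to 94392997) encodes MRP3, a basolateral pump for glucuronides and bile salts. It was at 1.48, 3.47, 3.67 and 1.57 BPM in the controls and 5.54, 6.65, 5.68 and 16.4 BPM in the mutants. Every mutant lay above every control, and mutant 3489 stood well above the other mutants. The means were 2.55 ± 1.18 and 8.57 ± 5.25 BPM (SD, n = 4 each), with a log2 fold change of 1.36 (SE 0.48, 95% interval 0.37 to 2.36, unadjusted p = 0.00984, limma adjusted p = 0.554). Without mutant 3489 the log2 fold change was 1.03. The authors' deposited table gives a p of 0.0666 for Abcc3, with no test or adjustment named. With small RNA genes left out of the totals the control values were 2.09, 5.28, 4.37 and 2.07 BPM and the mutant values 7.52, 12.8, 12 and 22.1 BPM, again without overlap.

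Slco4a1 (chromosome 2, 180456245 to 180474867) encodes a carrier of thyroid hormones and prostaglandins. It was at 1.89, 3.08, 5.77 and 2.92 BPM in the controls and 7.58, 4.64, 4.89 and 15.8 BPM in the mutants. Only control 3586 reached into the mutant range, above mutants 3387 and 3487. This gave a log2 fold change of 0.98 (95% interval -0.02 to 1.99, limma adjusted p = 0.799). With small RNA genes left out of the totals, mutants at 10.3, 8.92, 10.3 and 21.3 lay above controls at 2.67, 4.68, 6.86 and 3.85.

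**Figure D4:**
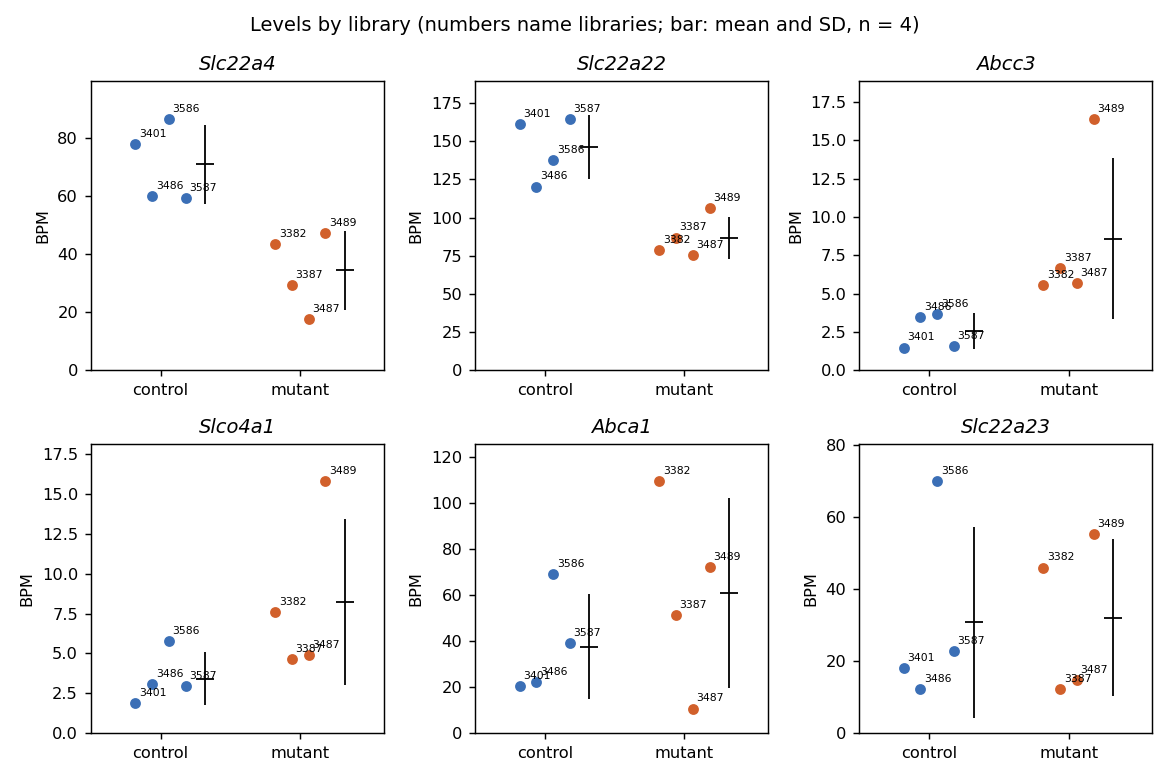
Each point is the level in BPM of 1 library, named by its number, for 6 transporter genes; the bar beside each group is its mean and SD (n = 4). Mutant points lie below all control points for Slc22a4 and Slc22a22 and above them for Abcc3, and the groups overlap for Slco4a1, Abca1 and Slc22a23.

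Slco1a1 (chromosome 6, 141907282 to 141946962), a brush border carrier of organic anions with higher levels in male than in female mouse kidney, was at 798, 681, 297 and 226 BPM in the controls and 79.1, 348, 357 and 445 BPM in the mutants. Controls 3401 and 3486 were high, mutant 3382 was low, and the other 5 libraries lay between 226 and 445. The log2 fold change was -0.76 (95% interval -1.77 to 0.25, limma adjusted p = 0.854), and -0.20 without mutant 3382. Slco1a6, a carrier found mainly in mouse kidney, was at 593, 178, 523 and 608 BPM in the controls and 289, 486, 605 and 769 BPM in the mutants, with control 3486 the lowest library (0.24, adjusted p = 0.926). Every library had coverage of the Y-linked genes Ddx3y, Kdm5d, Eif2s3y and Uty, and Xist was at or under 1.57 BPM. Of 4 female-biased kidney genes tested, 4 were positive and 1, Slc7a12, passed the threshold. Abp1 met the filter through its 4 mutant libraries, which favoured a positive value. Among the controls only 3586 reached 1 BPM (2.31 BPM), and the others were at or under 0.529 BPM. With median scaling, quantile normalization or small RNA genes left out of the totals 3 passed, Abp1 among them, and 4 with the covariate. More of all tested genes passed in these fits too, 3.75% with the covariate against 0.107% as reported. The summed level of the 4 female-biased genes was 6.46 to 24.4 BPM in the controls and 111 to 313 BPM in the mutants. Of 10 male-biased genes, 8 were negative and none passed, and 71.6% of all tested genes were negative. Sums of the 10 genes were 49271 to 62848 BPM in the controls and 31858 to 59169 BPM in the mutants. Most of each sum was Kap alone, at 43105 to 56715 BPM in the controls and 27187 to 55288 BPM in the mutants. The part of the female-biased and male-biased genes in the Slco1a1 values was not tested.

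The other Slco genes were at or under 10.3 BPM per kilobase in the controls. Slco3a1 was at 87.4 ± 40.9 and 57.7 ± 33.2 BPM and Slco2b1 at 41.2 ± 17.4 and 30.6 ± 15.8 (SD, n = 4 each), with log2 fold changes of -0.63 and -0.45 (limma adjusted p of 0.857 and 0.881). Slco2a1, the prostaglandin transporter, was at 9.56 ± 6.19 and 9.65 ± 5.65 BPM (-0.01, adjusted p = 0.999). Slco4c1, which carries digoxin and thyroid hormone in the human kidney, was at 1.64, 2.88, 4.32 and 6.72 BPM in the controls and 3.66, 1.26, no coverage and 9.64 BPM in the mutants. Its mutants thus held both the highest library, 3489, and the lowest, 3487 (-0.48, adjusted p = 0.907).

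Among the efflux pumps of the brush border, Abcg2 (chromosome 6, 58584523 to 58695676), the pump BCRP for urate and drugs, was at 464, 356, 483 and 391 BPM in the controls and 422, 304, 334 and 474 BPM in the mutants. The groups overlapped across most of their range, with a log2 fold change of -0.15 (95% interval -0.76 to 0.45, limma adjusted p = 0.934). Abcc2, which encodes the conjugate pump MRP2, was at 47.7, 60.1, 202 and 122 BPM in the controls and 99.9, 73.6, 32 and 266 BPM in the mutants. Mutant 3489 and control 3586 were the high libraries, and the 95% interval of its log2 fold change ran from -1.13 to 1.05 (limma adjusted p = 0.992). Abcc4, which encodes MRP4, was at 12.9, 22.7, 41.1 and 18 BPM in the controls and 31.4, 12.4, 10.4 and 25.9 BPM in the mutants (-0.24, 95% interval -1.17 to 0.69, adjusted p = 0.934).

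The P-glycoprotein genes Abcb1a and Abcb1b had little coverage. Abcb1a was at 1.03, 0.425, 4.64 and 3.32 BPM in the controls and at 1.2, no coverage, 0.879 and 4.02 BPM in the mutants. Abcb1b was at 0.549, 2.9, 8.39 and 2.8 BPM in the controls and 3.25, 3.06, 1.26 and 4.17 BPM in the mutants. The libraries of each group differed widely and the groups overlapped, with log2 fold changes of -0.44 and -0.02 (limma adjusted p of 0.906 and 0.996). These paralogs lie side by side on chromosome 5, and their coverage may be shared.

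Abcb1a is also a gene of endothelium in some organs. The 12 endothelial markers were all covered and had negative log2 fold changes (11 with small RNA genes left out of the totals and 8 with the covariate), with none past the threshold and sums of 448 to 847 BPM in the controls and 263 to 558 BPM in the mutants. Of all tested genes 71.6% were negative, 46.8% with small RNA genes left out of the totals and 31.6% with the covariate. The endothelial medians in these fits were -0.60, -0.33 and -0.21, against -0.23, 0.03 and 0.25 over all genes. Abcc9, the regulatory subunit of potassium channels in vascular muscle, was at 12.1, 15.1, 24.3 and 19.7 BPM in the controls and 10.5, 10.01, 9.9 and 14.7 BPM in the mutants (-0.59, limma adjusted p = 0.857). Mutant 3489 was the highest of the mutants. The other 3 mutants lay between 9.90 and 10.5 BPM. In whole kidney, fewer cells of a type and less RNA per cell cannot be told apart.

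Libraries of the lipid carrier genes of the Abca class differed widely. Abca1 (chromosome 4, 53030787 to 53159895), which loads cholesterol onto apolipoproteins and is abundant in macrophages, was at 20.2, 22, 69 and 38.9 BPM in the controls and 109, 51.2, 10.6 and 72.1 BPM in the mutants. Mutant 3382 was the highest of the 8 libraries and mutant 3487 the lowest. The log2 fold change was 0.46 (95% interval -0.69 to 1.61, limma adjusted p = 0.906), 0.05 without mutant 3382 and 1.13 without mutant 3487. Beside it, the summed level of 15 macrophage and leukocyte markers was 194.5 to 390.1 BPM in the controls, and the mutants were at 2308, 415, 257 and 1188 BPM. Of these sums, Lyz2 gave 1057, 165, 110 and 529 BPM in the mutants and Cd74 gave 630, 96.5, 38.6 and 331 BPM. All 13 tested markers had positive values, while 71.6% of all tested genes were negative. None of the markers passed the threshold and none was without coverage. With median scaling, quantile normalization or small RNA genes left out of the totals 2 passed, Cd14 and Lyz2, and more of all tested genes passed too. The part of the macrophage and leukocyte markers in the Abca1 values was not tested.

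Abca3, a carrier of phospholipids known from lung surfactant, was at 188, 66.9, 533 and 269 BPM in the controls and 306, 95.6, 78.8 and 308 BPM in the mutants (-0.34, limma adjusted p = 0.924). Its controls alone ranged from 66.9 to 533 BPM. Abca13, which encodes a very large ABC protein, was at 141, 92.5, 293 and 189 BPM in the controls and 147, 86.7, 61.9 and 165 BPM in the mutants (-0.62, adjusted p = 0.85). The log2 fold changes of the class ran from -0.88 for Abca17, at 4.38 ± 2.45 and 2.71 ± 3.7 BPM, to 0.78 for Abca4, at 7.46 ± 5.86 and 10.6 ± 3.95 BPM (SD, n = 4 each; adjusted p of 0.857 and 0.857). Abca5, a lysosomal member of the class, was at 6.15, 5.14, 14.2 and 11.5 BPM in the controls and 4.85, 1.95, 3.77 and 12.6 BPM in the mutants (-0.72, adjusted p = 0.857), and the groups overlapped. Abcg1, which exports cholesterol, was at 9.09 ± 4.21 and 8.54 ± 5.75 BPM (-0.24, adjusted p = 0.945).

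The carriers of organelles and the soluble ABC proteins showed no gene past the threshold. Abcb10 of mitochondria, which serves heme synthesis, was at 50.6 ± 20.6 and 39.6 ± 17.8 BPM in controls and mutants (SD, n = 4 each), with a log2 fold change of -0.36. The lysosomal peptide carrier Abcb9 had 0.66, the highest value of its class (limma adjusted p = 0.865). The peroxisomal carrier gene Abcd3 was at 44.4 ± 18.6 and 39.1 ± 11.4 BPM, with a log2 fold change of -0.14. Abcd2, a peroxisomal carrier of fatty acids, was at 0.915 ± 1.26 and 1.54 ± 0.851 BPM, without coverage in controls 3486 and 3587, and had the highest value of its class (0.56, adjusted p = 0.88). Abce1, which recycles ribosomes, was at 39.5 ± 9.09 and 40.3 ± 17.4 BPM (-0.04), and the translation factors Abcf1 and Abcf3 had -0.33 and 0.05, with adjusted p of 0.989, 0.916 and 0.989. In the Abcc class, Abcc6 was at 10.6, 4.85, 14.1 and 9.06 BPM in the controls and 5.51, 5, 4.3 and 6.69 BPM in the mutants, at -0.67 the lowest of the class (0.857).

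The 25 genes that were not tested include carriers of other organs. Abcb11, the bile salt pump of liver, and Slco1c1, the thyroxine carrier of brain vessels, had no coverage in any library, and Abcg8, the partner of Abcg5 in sterol export, had none either. The testis carriers Slco6c1 and Slco6d1 had none, nor had Slco6b1, which is annotated as a pseudogene. Abcg3 and Slc22a15 had coverage in 7 and 6 libraries, below the limit of 1 BPM in 4 libraries or more. Slc47a2 had none in the controls and 0.268, 0.347 and 0.162 BPM in mutants 3382, 3387 and 3489. The liver carrier gene Slco1b2 was at 2.48 BPM in mutant 3489 and at or under 0.76 BPM elsewhere. Among 11 hepatocyte markers Cps1 and Tat had no coverage, and their sum was 16.8 to 55.9 BPM in the controls and 63.4 to 87.2 BPM in the mutants. All 6 tested hepatocyte markers had positive values and none passed the threshold, while 71.6% of all tested genes were negative. With small RNA genes left out of the totals 1 passed, and with the covariate 2. More of all tested genes passed in these fits too, 3.75% with the covariate against 0.107% as reported. Hp met the filter through its 4 mutant libraries alone (1.45 to 14.7 BPM, controls at or under 0.453 BPM), which fixed its sign. Fgb met it through mutants 3382, 3387 and 3487 (1.42 to 2.76 BPM) and control 3586 (2.02 BPM). Its other controls were at or under 0.447 BPM, so the filter favoured a positive value. Serpina1a and Serpina1b had the highest means, 11.8 and 9.37 BPM for controls, 20.6 and 30.5 BPM for mutants. The Alb means were 3.89 BPM (controls) and 3.67 BPM (mutants). Among the untested markers with coverage, Apoa2 had a lower mean in mutants (0.505 against 1.36 BPM), Ttr and Ahsg a higher one. The part of the hepatocyte markers in the values of Slco1b2 and of Abcc3, which liver also expresses, was not tested.

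With the small RNA share of each library as a covariate, 4 of the 68 genes passed the threshold, and 3.75% of all tested genes did. All 4 were higher in the mutants, as were 3.19% of all tested genes, and 0.559% were lower. They were Abcc3 (log2 fold change 1.63, 95% interval 0.69 to 2.57, limma adjusted p = 0.0496), Slco4a1 (1.53, 0.69 to 2.37, 0.0407), Abca1 (1.53, 0.78 to 2.28, 0.0242) and Slc22a23 (1.16, 0.54 to 1.79, 0.0381). In the same fit Slc22a4 was at -0.65 and Slc22a22 at -0.65 (adjusted p of 0.136 and 0.106). None of the 4 passed under any other setting. In this fit the median of all genes was 0.25, against -0.23 without the covariate, and 12 of 13 macrophage and leukocyte markers passed the threshold, each with a positive value. Their part in these 4 results was not tested.

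**Figure D5:**
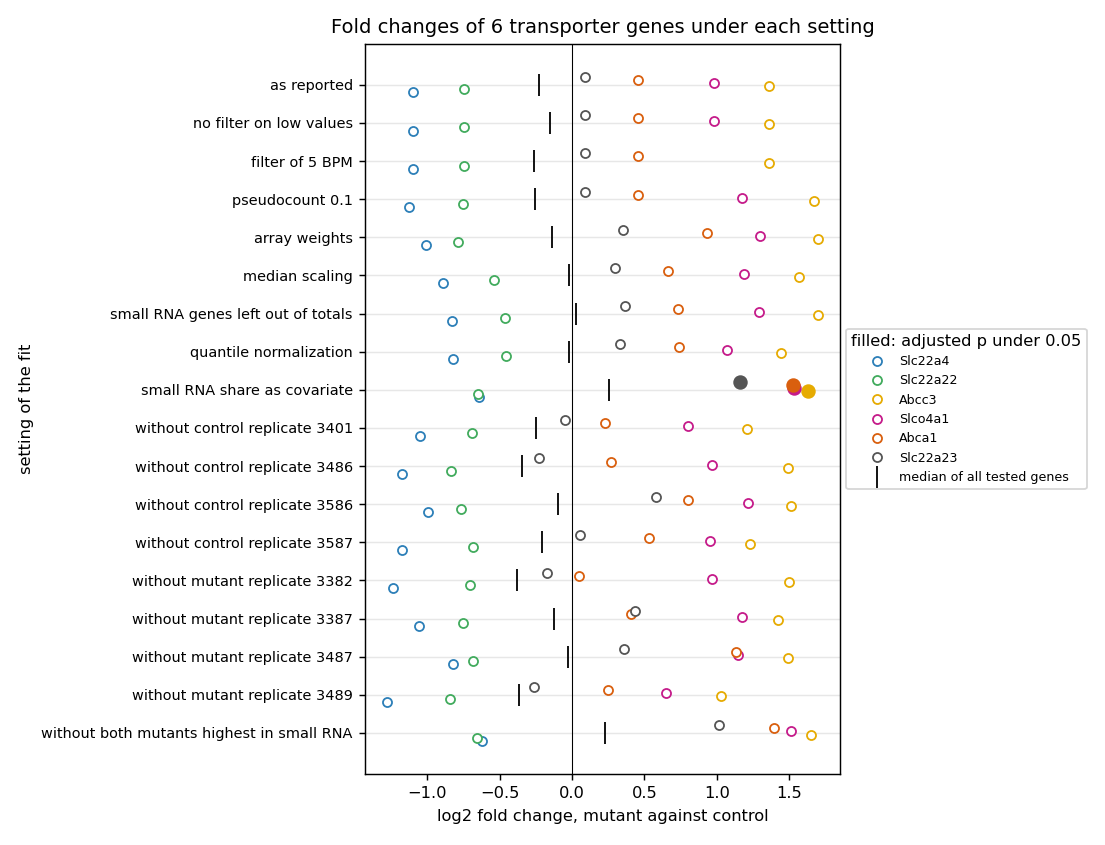
Points give the log2 fold change, mutant against control, of 6 transporter genes under each setting of the fit (rows), filled where the limma adjusted p is under 0.05, with a black bar at the median of all tested genes. Slc22a4 and Slc22a22 lie left of 0 and Abcc3, Slco4a1 and Abca1 right of it in every row where they were tested, and filled points occur only with the small RNA share as covariate.

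Other carriers of organic solutes in the tubule gave a like picture. Of 22 such genes 18 were tested, none passed the threshold, and 18 of 18 were negative, with a median log2 fold change of -0.36. Of the 18, 12 were negative with median scaling, 11 with quantile normalization, 10 with small RNA genes left out of the totals and 7 with the small RNA share as covariate. Of all tested genes 71.6% were negative before these changes, and 52.2%, 52.6%, 46.8% and 31.6% under the same settings in turn. The dicarboxylate carrier Slc13a3, which feeds the exchange of OAT1 and OAT3, had -0.20 (limma adjusted p = 0.934). The phosphate and urate carriers Slc17a1 and Slc17a3 had -0.44 and -0.53 (0.857 and 0.828), and the organic solute carriers Slc51a and Slc51b had -0.60 and -0.49 (0.828 and 0.857). Of the 24 proximal tubule markers, 22 were negative (17 with small RNA genes left out of the totals and 12 with the covariate) and none passed, with a median of -0.45 and sums of 23479 to 38851 BPM in the controls and 17525 to 29657 BPM in the mutants. The median of the list was -0.17 with small RNA genes left out of the totals and -0.0030 with the covariate. Over all genes the medians of these fits were -0.23, 0.03 and 0.25. The part of this list in the carrier values was not tested.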

How the data were processed

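RNA of 8 whole kidneys was measured. Per the labels' protocols, total RNA was depleted of ribosomal RNA and made into Ion Total RNA-seq libraries. The authors deposited 1 table of 23219 genes with a coverage signal for each library, the mean of each group, and a ratio and p-value per gene. Its header names no unit. Divided by its library's lowest value, 100% of the values came out whole (tolerance 1e-06) and only 0.0435% of those above 0 coverage lay under 20, so a value was read as bases per gene plus 1, scaled to about 280 megabases. No read counts, intervals or detection floors can be had from it. The submitters' processing notes name bedtools and mm10; not given in the sources used here are the aligner, annotation and handling of strand or shared reads.

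Values were divided by 280 (BPM). The 13060 genes that reached 1 BPM in at least 4 libraries entered limma 3.58.1 (R 4.3.3), fitted to log2(BPM + 1) with a trend in the variance; p-values were 2-sided and adjusted by Benjamini-Hochberg over all of them. Fold changes on this scale understate those of low genes. The script was tested on simulated data. Coordinates and exon lengths are from GENCODE vM21 (GRCm38), to which 93 of 93 transporter symbols matched; the authors' gene models may differ. Small RNA genes are 700 genes of the small RNA classes.

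Genes named are the 12 of smallest unadjusted p, a list of well known renal carriers, and the highest and lowest of each family; any other was chosen after seeing its values. A few genes are not reported here. The members, lists and alternatives were chosen with earlier results of these data known. Alternatives were no filter, a filter of 5 BPM, a pseudocount of 0.1, array weights, median scaling, small RNA genes left out of the totals, quantile normalization, the small RNA share of each library as covariate, and leaving out each library or both mutants highest in small RNA. The fit with array weights gave a convergence warning, so its values are less certain.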

Additional observations from a re-analysis of the deposited data

Results flagged for a closer look

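In 3 cases a single library lay far from the other 3 of its group, by Dixon's test of the gap over the range. Each was mutant 3489, with Slc22a12 at 1694 BPM, Abcc3 at 16.4 BPM and Abcc9 at 14.7 BPM. In all, 74 groups were examined, and chance gives about 1 flag in 20 groups. Mutant 3489 was also the most deeply sequenced library, with 468 megabases.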

How the results depend on the processing

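With 0 transporter genes past the threshold as reported, 4 were higher with the small RNA share as covariate and 0 passed under each other alternative. The count over all genes, 14 as reported, was 11 with no filter, 9 with a filter of 5 BPM and 9 with a pseudocount of 0.1. It was 73 with array weights, 72 with median scaling, 59 with small RNA genes left out of the totals, 69 with quantile normalization, 490 with the covariate and 51 without mutants 3387 and 3487. It ranged from 5 to 40 when single libraries were left out. Of the calls 71.4% were higher as reported, 81.9% with median scaling, 83.1% with small RNA genes left out, 82.6% with quantile normalization and 85.1% with the covariate. When single libraries were left out, the median over the transporter genes ranged from -0.45 without mutant 3489 to -0.057 without mutant 3487. It turned positive with small RNA genes left out of the totals (0.0094), with the covariate (0.23) and without mutants 3387 and 3487 (0.20). Family medians moved beyond the spread between libraries with the covariate, to 0.41 for Abca, 0.48 for Abcc, 0.46 for Abce, 0.47 for Abcf, 0.33 for Abcg and 0.010 for Slc22a, and without mutants 3387 and 3487 to 0.40 for Abca and 0.45 for Abcc. Named genes changed sign as follows, none of them past the threshold under the setting given. With the small RNA share as covariate, the log2 fold change was 0.070 for Abca13, 0.072 for Abca17, 0.35 for Abcb1a, 0.52 for Abcb1b, 0.99 for Abcc2, 0.40 for Abcc4, 0.46 for Abce1, 0.47 for Abcf1, 0.58 for Abcg1, 0.081 for Abcg2, 0.12 for Slc22a12, 0.027 for Slc22a2, 0.015 for Slc22a6, 0.49 for Slc22a8, 0.085 for Slc47a1, 0.91 for Slco2a1 and 0.55 for Slco4c1. Without mutants 3387 and 3487, it was 0.056 for Abca17, 0.20 for Abcb1a, 0.29 for Abcb1b, 0.82 for Abcc2, 0.38 for Abcc4, 0.43 for Abce1, 0.30 for Abcf1, 0.55 for Abcg1, 0.091 for Abcg2, 0.057 for Slc22a12, 0.29 for Slc22a8, 0.045 for Slc47a1, 0.72 for Slco2a1 and 0.64 for Slco4c1. With a pseudocount of 0.1, it was 0.090 for Abcb1b. With array weights, it was 0.59 for Abcb1b, 0.50 for Abcc2, 0.14 for Abcc4, 0.084 for Abce1 and 0.20 for Slco2a1. With median scaling, it was 0.18 for Abcb1b, 0.17 for Abcc2, 0.16 for Abce1, 0.052 for Abcg2 and 0.20 for Slco2a1. With small RNA genes left out of the totals, it was 0.22 for Abcb1b, 0.24 for Abcc2, 0.023 for Abcc4, 0.23 for Abce1, 0.13 for Abcg2, 0.077 for Slc22a12 and 0.24 for Slco2a1. With quantile normalization, it was 0.021 for Abcb1b, 0.27 for Abcc2, 0.23 for Abce1, 0.14 for Abcg2 and 0.17 for Slco2a1. When single libraries were left out it ranged from -0.46 to 0.41 for Abcb1b, from -0.56 to 0.44 for Abcc2, from -0.50 to 0.054 for Abcc4, from -0.28 to 0.20 for Abce1, from -0.66 to 0.014 for Abcf1, from -0.26 to 0.35 for Abcf3, from -0.58 to 0.24 for Abcg1, from -0.26 to 0.58 for Slc22a23, from -0.65 to 0.072 for Slc22a8, from -0.18 to 0.51 for Slco1a6, from -0.37 to 0.45 for Slco2a1 and from -1.04 to 0.091 for Slco4c1. The cause was not tested. In all, 513 of the single-gene alternatives kept their direction and side of the threshold, 4 became past it and 83 changed sign. The numbers of non-overlapping genes on other scalings were chosen after seeing the data, 3 with small RNA genes left out of the totals and 2 with median scaling. No paired analysis was possible because the groups share no replicate numbers. Without mutants 3387 and 3487 the mutant group held 2 libraries. The number of reads behind each value is unknown.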
